A study of Mus musculus with 6 samples.

Results

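Dlk1 (delta-like non-canonical Notch ligand 1) and 9 further imprinted genes that regulate growth were followed across the differentiation of mouse osteoblasts and cabozantinib treatment. The genes were Meg3, H19, Mest, Plagl1, Grb10, Cdkn1c, Peg3, Ndn and Zim1, making 10 genes in all, of which 9 are among the 20659 named genes on the array. Dlk1 was chosen by its measured values, since its signal fell in the cabozantinib-treated osteoblasts of these same arrays, so they are given as a description and without a test. The 9 others were chosen as imprinted genes, with earlier results of these arrays known. The question was whether the other imprinted genes changed with it.

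Primary osteoblasts were isolated from the calvaria of newborn CD1 mice and measured on 6 one-color Agilent arrays. The undifferentiated osteoblasts had been cultured to confluence, the differentiated osteoblasts had been kept in differentiation medium for 30 days, and the cabozantinib-treated osteoblasts had been kept for 30 days in that medium with 100 nM cabozantinib, an inhibitor of the receptor tyrosine kinases VEGFR2 and MET. No group carried a genetic modification. Each group had 2 arrays, and since nothing in the sources used here ties the arrays to separate cell preparations, p values measure only the spread between these arrays. The 4 arrays of undifferentiated and differentiated osteoblasts were on 1 slide and both arrays of cabozantinib-treated osteoblasts on another, so slide and cabozantinib cannot be told apart.

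Imprinted genes are expressed mainly or only from the copy inherited from 1 parent, and many of them act on fetal growth and on the balance between progenitor growth and differentiation. Dlk1, a membrane protein that can be shed, restrains adipocyte differentiation and is also known as an inhibitor of osteoblast differentiation. It is expressed from the paternal copy of a domain in which the noncoding RNA Meg3 is expressed from the maternal copy. Plagl1 is a zinc finger transcription factor that has been placed at the centre of a network of coexpressed imprinted genes that includes Dlk1, H19, Mest, Cdkn1c and Grb10.

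The promoters of Dlk1 and Meg3 are shown because these genes are neighbors in 1 imprinted domain. Each window runs from 250 bases before to 50 bases after the RefSeq start (build GRCm38.p6), 5′ to 3′ on the plus strand, at chr12:109452573-109452872 for Dlk1 and at chr12:109540746-109541045 for the first of 2 Meg3 starts. Capitals mark the palindromic cAMP response element TGACGTCA and the TATA box sequence TATAAA, both searched on both strands.
Dlk1 promoter: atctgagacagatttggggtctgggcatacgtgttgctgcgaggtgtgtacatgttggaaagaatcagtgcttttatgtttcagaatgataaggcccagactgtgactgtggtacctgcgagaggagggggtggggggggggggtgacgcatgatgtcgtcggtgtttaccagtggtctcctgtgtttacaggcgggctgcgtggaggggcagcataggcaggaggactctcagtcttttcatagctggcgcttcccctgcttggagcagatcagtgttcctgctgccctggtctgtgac
Meg3 promoter: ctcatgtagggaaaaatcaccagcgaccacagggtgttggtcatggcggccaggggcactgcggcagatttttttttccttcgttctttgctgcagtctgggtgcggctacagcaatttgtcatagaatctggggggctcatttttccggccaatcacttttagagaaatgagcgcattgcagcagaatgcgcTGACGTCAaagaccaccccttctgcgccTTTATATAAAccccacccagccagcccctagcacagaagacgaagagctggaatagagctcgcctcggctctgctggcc
The Meg3 window held 1 TGACGTCA and 2 overlapping matches to TATAAA, 1 on each strand. The Dlk1 window held neither. Among all 32851 mouse promoter windows of this length, 1.79% held TGACGTCA and 13.62% held TATAAA. Among the 8 genes of the set with a promoter in the RefSeq table, TGACGTCA was also found in the window of Peg3. These matches describe the letters of the windows only.

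Signals are given as log2 values relative to the 75th percentile of each array, so that 0 is the level of a bright probe, and a difference of 1 is a 2-fold difference. They rank the arrays for 1 probe and do not compare probes with each other. A probe was called well above background by the scanner software. The 75th percentile of the signal was 678 to 1974 on the undifferentiated, 721 to 1216 on the differentiated and 1090 to 1401 on the cabozantinib arrays, and 61.1% to 72.9%, 64.8% to 67.4% and 58.8% to 58.9% of the spots were well above background. Probes were matched for 9 of the 10 genes, with 19 probes in all. No probe was matched to H19, which is not analysed here. Both Peg3 probes were not well above background on any array. Apart from Dlk1, 7 genes could be tested. Over the whole array 23082 genes were tested. Of these, Dlk1 and 16134 others were named, and the rest were probes counted under their own transcript name.

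The Dlk1 signal was higher in differentiated osteoblasts than in both other groups. Its brighter probe, which was well above background on all 6 arrays, gave 0.74 and -0.13 in undifferentiated, 2.76 and 2.38 in differentiated and -0.89 and -0.63 in cabozantinib-treated osteoblasts. The 3 groups did not overlap, and the cabozantinib-treated osteoblasts were below the undifferentiated ones. The mean was 0.30 ± 0.61 (SD, n = 2), 2.57 ± 0.27 and -0.76 ± 0.19, so that Dlk1 was 4.80-fold higher in differentiated than in undifferentiated osteoblasts and 10.1-fold lower with cabozantinib. The study also lists Dlk1 as lower with cabozantinib on these arrays. It reports that real-time RT-PCR could not measure Dlk1 RNA accurately in osteoblasts differentiated for 24 days, treated or untreated, because its level was too low. The arrays are labelled as 30 days. In bulk RNA, fewer cells that express a gene and less of its RNA in each cell cannot be told apart.

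The second Dlk1 probe was dim and was well above background on 4 arrays. It gave -5.10 and -5.15 in undifferentiated, -3.84 and -4.33 in differentiated and -4.91 and -6.65 in cabozantinib-treated osteoblasts. It had the same order of differentiated above cabozantinib-treated osteoblasts with a smaller difference, of -1.70 on the log2 scale and -0.90 with quantile normalization. Its cabozantinib arrays overlapped with the undifferentiated ones, and 1 of them was well above background. Of the 23082 genes tested, 51 had a lower log2 difference with cabozantinib than the brighter Dlk1 probe. Among the 17512 genes well above background on all 6 arrays, 6 did.

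**Figure D1:**
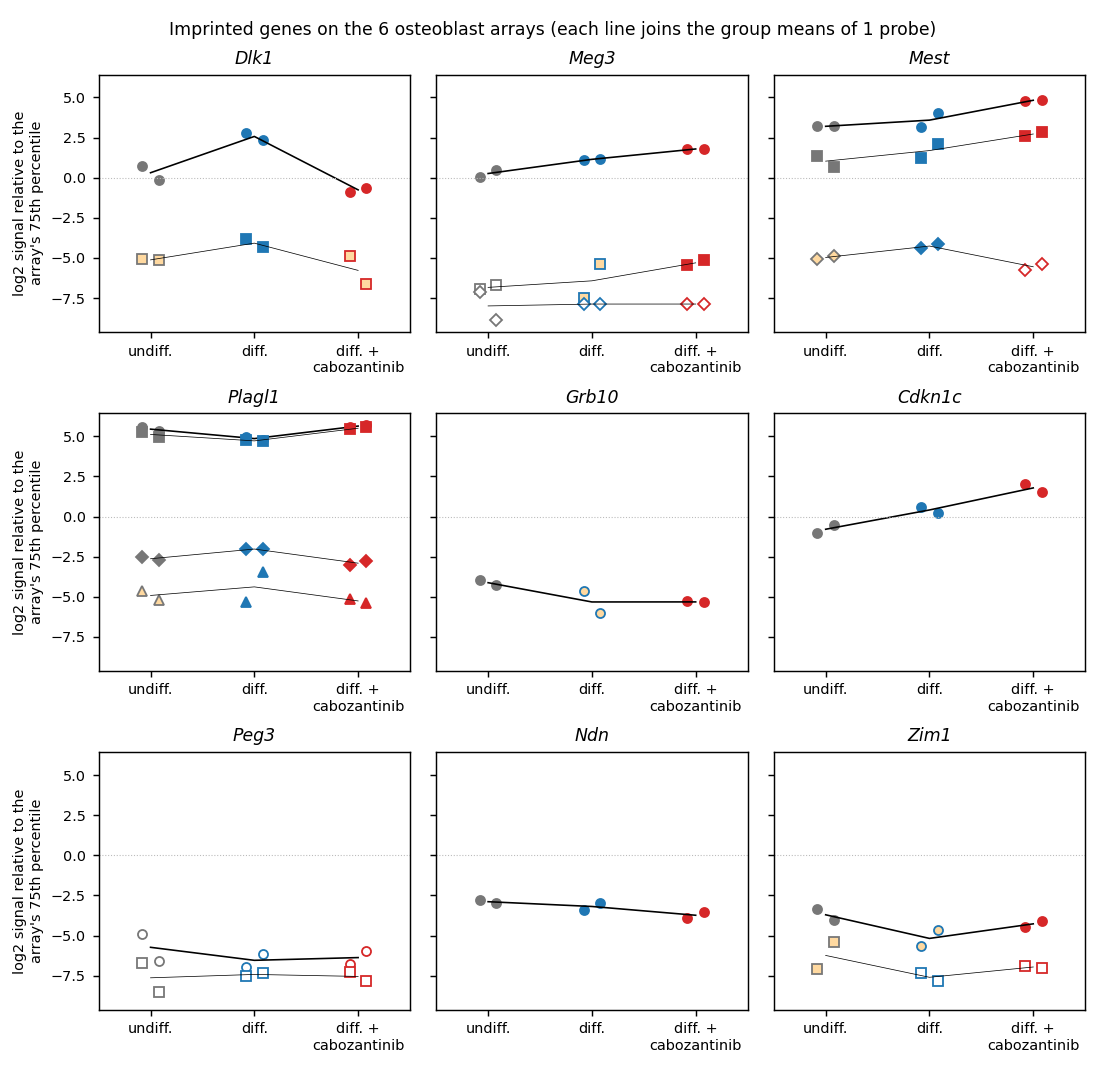
Signal of each probe of the 9 genes with probes on the 6 arrays, as log2 relative to the 75th percentile of the array, with a line through the group means of each probe. Gray, blue and red mark undifferentiated, differentiated and cabozantinib-treated osteoblasts, and a point is filled in its group color where both arrays of the group were well above background, pale orange where 1 was and white where neither was. Dlk1 peaks in the differentiated group, while the bright probes of Meg3, Mest and Cdkn1c are highest with cabozantinib.

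Dlk1 was not tested, and none of the other genes of the set passed the test between cabozantinib-treated and differentiated osteoblasts. In the cabozantinib-treated against the differentiated osteoblasts, 0 of the 7 genes tested passed limma's test at an adjusted p under 0.05, where 12.1% of all genes tested did (0.711% higher and 11.4% lower). In this comparison 6 of the 7 log2 differences were above 0 and 1 was below, with a median of 0.78 for the 7 genes and of -0.29 for all genes tested. The arrays of the groups did not overlap for 6 of the 7 genes, 5 higher and 1 lower, beside 58.4% of all genes (13.3% higher and 45.1% lower). Differences in either direction that miss the test do not show equal levels, and the 95% intervals of the 7 genes reached from -1.38 for Ndn to 2.27 for Cdkn1c.

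Meg3, the maternally expressed noncoding RNA of the Dlk1 domain, had the lowest signal in undifferentiated and the highest in cabozantinib-treated osteoblasts. Its bright probe gave 0.03 and 0.48 in undifferentiated, 1.10 and 1.18 in differentiated and 1.80 and 1.77 in cabozantinib-treated osteoblasts, with no overlap between the groups. The log2 difference with cabozantinib was 0.65 ± 0.34 (SE; limma adjusted p = 0.269), and that with differentiation was 0.88 ± 0.34 (adjusted p = 0.149). Neither step passed the test, while the cabozantinib-treated osteoblasts were above the undifferentiated ones by 1.53 ± 0.34 (adjusted p = 0.0221). Of the 2 dim Meg3 probes, 1 was well above background on 3 arrays, and its difference with cabozantinib was 1.12 (limma adjusted p = 0.332), while the other was not above background on any array.

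No other listed gene of the domain passed limma's test in any comparison. Mirg, a noncoding RNA that hosts microRNAs, gave 0.05 and -1.67 in undifferentiated, -0.10 and 1.02 in differentiated and 0.21 and 0.90 in cabozantinib-treated osteoblasts. The differentiated arrays overlapped with both other groups, and the cabozantinib arrays were above the undifferentiated ones (limma adjusted p = 0.169). Dio3, the deiodinase that inactivates thyroid hormone, differed by -0.56 with cabozantinib, without overlap (limma adjusted p = 0.615). Rtl1 was not tested because of its low signal, and no probe was matched to Rian.

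**Figure D2:**
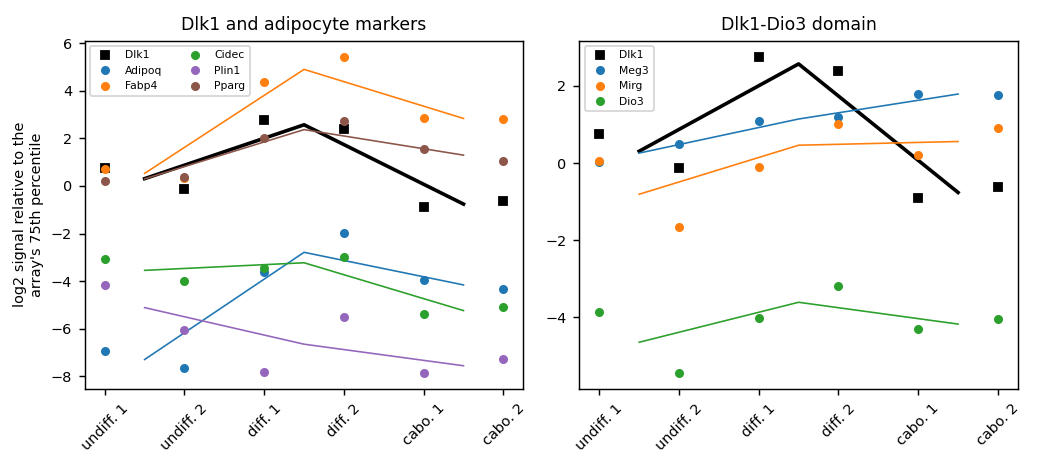
Log2 signal relative to the 75th percentile on each of the 6 arrays for Dlk1 with 5 adipocyte markers (left) and with 3 genes of its imprinted domain (right), where each line joins the group means of 1 gene. Dlk1, Fabp4, Adipoq and Pparg are highest in the differentiated arrays, while the undifferentiated and differentiated arrays of Cidec and of Plin1 overlap. Meg3 is highest with cabozantinib.

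Cdkn1c, which encodes the cyclin-dependent kinase inhibitor p57, had the largest difference with cabozantinib among the 7 genes tested with 75th percentile scaling, whereas with quantile normalization Zim1 (1.63) and Mest (1.41) were above Cdkn1c (1.38). It gave -1.06 and -0.53 in undifferentiated, 0.59 and 0.22 in differentiated and 2.02 and 1.54 in cabozantinib-treated osteoblasts. The groups did not overlap and were in the opposite order to Dlk1 in the cabozantinib step. The log2 difference with cabozantinib was 1.37 ± 0.38 (SE; limma adjusted p = 0.059), and with differentiation it was 1.20 ± 0.38 (adjusted p = 0.0882). Across both steps, Cdkn1c was 5.96-fold higher in cabozantinib-treated than in undifferentiated osteoblasts (limma adjusted p = 0.0074). When the undifferentiated arrays were left out of the fit, the difference with cabozantinib passed the test (limma adjusted p = 0.0369), in a fit that called 4602 genes. With the replicate block the adjusted p was 0.147 and with quantile normalization 0.0958, and over all alternatives it ran from 0.0287 to 0.861.

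Mest, a putative hydrolase expressed from the paternal copy and known for its expression in growing mesoderm and fat, was measured by 2 bright probes. The brightest, printed in 10 spots, gave 3.19 and 3.20 in undifferentiated, 3.15 and 4.01 in differentiated and 4.80 and 4.84 in cabozantinib-treated osteoblasts. Both cabozantinib arrays were above all others, while the undifferentiated and differentiated arrays overlapped. The log2 difference with cabozantinib was 1.24 ± 0.39 (SE; limma adjusted p = 0.083) and that to undifferentiated osteoblasts 1.62 ± 0.39 (adjusted p = 0.0275). The spots of this probe varied little within an array (SD 0.0298 to 0.0873), less than the 2 differentiated arrays differed. The second bright probe differed by 1.03 with cabozantinib (limma adjusted p = 0.171), whereas another, dim probe went the other way (adjusted p = 0.0531). This dim probe was not well above background on either cabozantinib array and was at least 2.37-fold lower there. It passed the filter only through the differentiated arrays, so nothing is read from its direction. With quantile normalization its difference was -0.51 (limma adjusted p = 0.394).

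Plagl1 had bright signals on every array. Its brightest probe gave 5.59 and 5.30 in undifferentiated, 4.94 and 4.77 in differentiated and 5.58 and 5.69 in cabozantinib-treated osteoblasts. The differentiated arrays were below the others, the opposite of Dlk1. The log2 difference was 0.78 ± 0.33 with cabozantinib (SE; limma adjusted p = 0.170) and -0.59 ± 0.33 with differentiation (adjusted p = 0.332). The second bright probe gave 0.79 with cabozantinib, but 2 dimmer probes each gave -0.88. The median of all genes with a mean log2 signal below -2 was -0.94. With quantile normalization the 2 dimmer probes gave -0.58 (limma adjusted p = 0.222) and -0.14 (adjusted p = 0.923), and the arrays of the latter overlapped. The probes of Plagl1 differed in sign, and the part of brightness in this was not tested.

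The remaining genes were dim. Grb10, an adaptor that inhibits insulin and IGF receptor signaling, differed by 0.00 ± 0.49 with cabozantinib (SE; limma adjusted p = 0.998), and by 0.88 with quantile normalization (adjusted p = 0.431). Ndn (necdin), a growth suppressor, gave -2.81 and -2.97 in undifferentiated, -3.41 and -2.96 in differentiated and -3.92 and -3.54 in cabozantinib-treated osteoblasts. It was the single gene with a lower value with cabozantinib, by -0.55 ± 0.35 (SE; limma adjusted p = 0.383), and with quantile normalization the difference was -0.03. Zim1, a zinc finger gene of the Peg3 domain, gave -3.35 and -4.06 in undifferentiated, -5.68 and -4.67 in differentiated and -4.47 and -4.06 in cabozantinib-treated osteoblasts. Its differentiated arrays were the lowest, with a log2 difference of -1.47 ± 0.47 with differentiation (SE; limma adjusted p = 0.089) and 0.91 ± 0.47 with cabozantinib (adjusted p = 0.261).

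**Figure D3:**
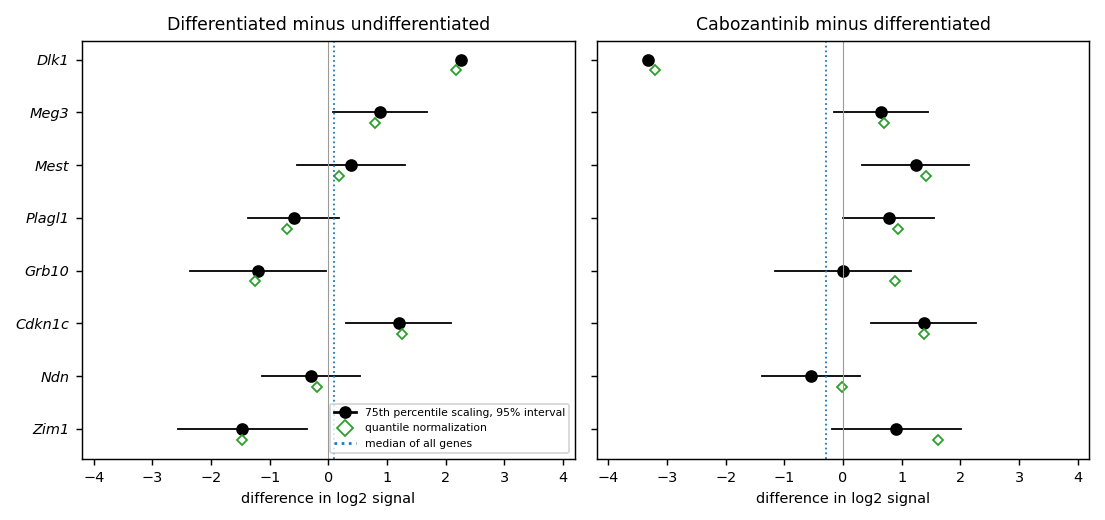
Difference in log2 signal for the brightest probe of each gene, in differentiated against undifferentiated (left) and cabozantinib-treated against differentiated osteoblasts (right). Black points are the values with 75th percentile scaling and bars their 95% intervals (none for Dlk1, which was not tested), open diamonds are the values with quantile normalization and the dotted line is the median of all genes. Dlk1 lies at -3.33 with cabozantinib, while Cdkn1c and Mest lie above 1.

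In the differentiated against the undifferentiated osteoblasts, 0 of the 7 genes passed limma's test, where 13.0% of all genes tested did (6.89% higher and 6.16% lower). Of the 7, 3 had higher and 4 lower values (median -0.30, against 0.10 for all genes). The arrays did not overlap for 5 of the 7, Meg3 and Cdkn1c being higher and Plagl1, Grb10 and Zim1 lower, beside 44.5% of all genes (25.0% higher and 19.5% lower). In the cabozantinib-treated against the undifferentiated osteoblasts, which share arrays with both other comparisons, Meg3, Mest and Cdkn1c were higher at an adjusted p under 0.05, where 24.0% of all genes were called (6.56% higher and 17.4% lower). The arrays did not overlap for 6 of the 7, 3 in each direction, beside 63.9% of all genes (19.4% higher and 44.4% lower). With the replicate number as a block 1 of these 3 calls, that of Cdkn1c, was kept.

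Of 57 further imprinted genes listed, 48 could be tested. In the cabozantinib-treated against the differentiated osteoblasts 8 of them passed limma's test, 1 higher and 7 lower (median -0.07), beside 12.1% of all genes (0.711% higher and 11.4% lower). Of the 48 genes, 23 had higher and 25 lower values. The gene called higher was Nap1l5, a nucleosome assembly protein family member that was not well above background in differentiated osteoblasts. Those called lower were Kcnq1, Nap1l4, Peg10, Magel2, Nnat, Kcnk9 and Gatm. All 8 calls were lost with quantile normalization and with the replicate block.

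All 7 genes called lower were dim. Kcnq1, a potassium channel, gave -4.07 and -2.65 in differentiated osteoblasts and was not well above background on the other 4 arrays, so that it was at least 4.84-fold lower with cabozantinib (limma adjusted p = 0.0311) and at least 7.22-fold higher with differentiation (adjusted p = 0.00647). Gatm, an enzyme of creatine synthesis, was also well above background in the differentiated arrays alone, at least 1.62-fold lower with cabozantinib (limma adjusted p = 0.0252). Both genes passed the filter on low signals only through the differentiated arrays, so they had to be highest there, and nothing is read from that order. Nap1l4 and Nnat were well above background on no cabozantinib array. They passed the filter through the undifferentiated and differentiated arrays, so nothing is read from their direction either. Peg10, a retrotransposon-derived gene, was well above background on all 6 arrays and fell by 1.61 on the log2 scale (limma adjusted p = 0.0369), and Magel2, a neighbor of Ndn, fell by 1.44 (adjusted p = 0.0499).

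The direction of the calls moved with brightness. Of the 11081 genes with a mean log2 signal below -2, 22.0% were called lower with cabozantinib (median -0.94), against 0.642% of the 6853 genes with a mean above 1 (median -0.12). With quantile normalization the median of the dim genes was -0.31 and no gene of any brightness passed the test, with 5514 at an unadjusted p under 0.05. The part of signal and slide in the 7 lower calls was not tested. Dlk1, at a mean of 0.70, differed by -3.21 with quantile normalization.

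**Figure D4:**
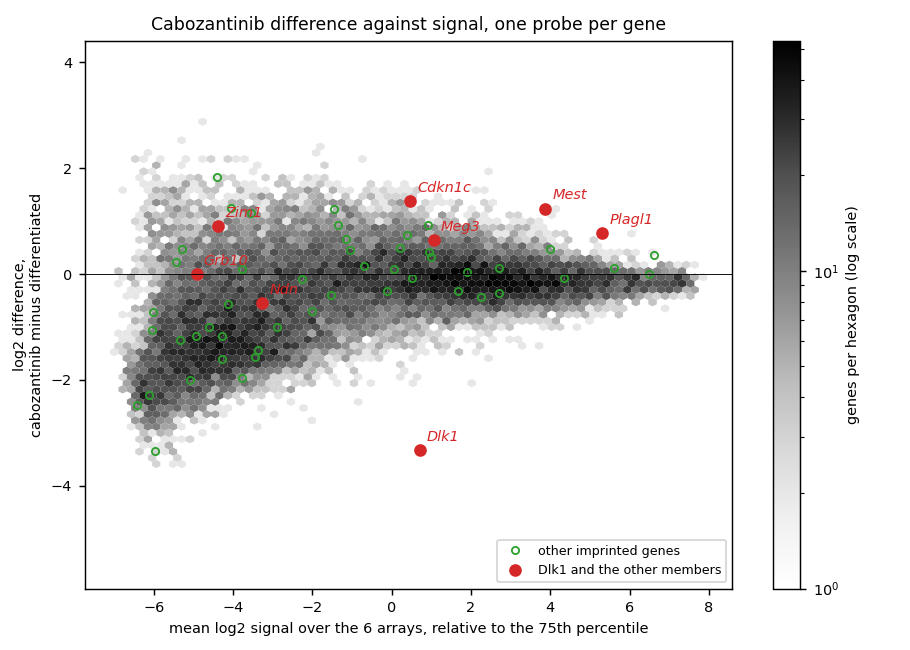
Difference in log2 signal between cabozantinib-treated and differentiated osteoblasts against the mean log2 signal over the 6 arrays, for 23082 genes as gray hexagons (log color scale), with Dlk1 and the other genes of the set in red and other imprinted genes as green circles. The cloud bends below 0 at low signal, where the other imprinted genes called lower lie, and Dlk1 lies at -3.33, below the cloud at its signal.

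In the domains of the genes without a usable probe or with a dim one, Igf2, the growth factor next to H19, gave -3.19 and -4.29 in undifferentiated, -4.27 and -3.62 in differentiated and -5.35 and -4.89 in cabozantinib-treated osteoblasts. It was lowest with cabozantinib but did not pass the test (-1.18, limma adjusted p = 0.157). Of the 9 tested genes of the H19-Igf2 and Kcnq1 domains, which also hold Cdkn1c, the 2 called were Kcnq1 and Nap1l4. In the Peg3 domain Usp29 was not called (limma adjusted p = 0.0882), and next to Grb10, Ddc differed by 1.23 (adjusted p = 0.0937).

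With differentiation, 8 of the 48 imprinted genes passed limma's test, 4 in each direction, beside 13.0% of all genes (6.89% higher and 6.16% lower). Rasgrf1, an exchange factor for Ras, was 5.20-fold higher (limma adjusted p = 0.0048), and Ppp1r9a, Kcnq1 and Gatm were also higher. Peg12, Commd1, Nap1l5 and Htr2a were lower. Htr2a was well above background on the undifferentiated arrays alone and passed the filter through them, so nothing is read from its direction. Nap1l5 was at least 4.07-fold lower (limma adjusted p = 0.0114). It was well above background in both other groups and passed the filter through them.

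Of 5 listed genes linked to Dlk1 (Dlk2, Adam17, Sox9, Fn1 and Notch1), 4 were tested and 0 passed limma's test in either comparison. No probe was matched to Dlk2, the gene that resembles Dlk1. Adam17, the protease that sheds Dlk1, differed by -0.71 with cabozantinib (limma adjusted p = 0.362). Notch1, a receptor of the pathway, was 2.20-fold higher with differentiation (limma adjusted p = 0.269) and at least 2.67-fold lower with cabozantinib, where it was not well above background (adjusted p = 0.0617). Its arrays did not overlap in either step, beside 58.4% of all genes with cabozantinib and 44.5% with differentiation. Notch1 passed the filter through the undifferentiated and differentiated arrays, so nothing is read from its direction with cabozantinib. Of 11 tested genes that maintain or erase imprints, among them Dnmt1, Trim28 and Ctcf, 0 passed limma's test in either comparison. Of all genes tested, 12.1% passed with cabozantinib and 13.0% with differentiation. With quantile normalization Uhrf1 passed it with differentiation (limma adjusted p = 0.0414).

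Markers of other cells moved in the same samples. The summed level of 5 adipocyte markers, in units of the 75th percentile, was 2.66 to 2.97 in undifferentiated, 24.7 to 50.1 in differentiated and 9.11 to 10.3 in cabozantinib-treated osteoblasts. The sum follows the brightest probe, and on the differentiated and cabozantinib arrays it came mostly from Fabp4. Fabp4, a fatty acid binding protein, was 20.6-fold higher with differentiation (limma adjusted p = 0.00186) and 4.17-fold lower with cabozantinib (adjusted p = 0.0334). With differentiation 4 of the 5 markers had higher values, and 3 passed limma's test, all higher (Adipoq, Fabp4 and Pparg). With cabozantinib all 5 had lower values, and 2 passed (Fabp4 and Cidec). The calls with cabozantinib were lost with quantile normalization. Of all genes tested, 13.0% passed with differentiation (6.89% higher) and 12.1% with cabozantinib (11.4% lower). Lep was not tested, and Plin1 was well above background on 3 arrays. The markers did not share 1 order of groups. With cabozantinib Fabp4 was above the undifferentiated level, by 2.31 on the log2 scale (limma adjusted p = 0.0148), whereas Cidec was below it, by -1.69 (adjusted p = 0.0317). Plin1 was at least 1.44-fold below that level (limma adjusted p = 0.0789), but it passed the filter only through the undifferentiated arrays, so nothing is read from its direction. The part of adipocytes in the Dlk1 values was not tested.

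Of 11 osteoblast markers tested, 9 were well above background on all 6 arrays, among them Col1a1 and Alpl, while Runx2 was so on no differentiated array and Sp7 on 1. With differentiation 7 of the 11 had higher and 4 lower values, and 5 passed limma's test, all higher. With cabozantinib 5 had higher and 6 lower values, and 1 passed. Spp1 was 12.8-fold lower with differentiation without passing the test (limma adjusted p = 0.0606). Phex was 82.5-fold higher with differentiation (limma adjusted p = 0.000507). With cabozantinib it was 2.30-fold lower, without overlap and without passing the test (adjusted p = 0.0793). Bglap2 (osteocalcin) was 33.1-fold higher with differentiation (limma adjusted p = 0.000699) and differed by -0.08 with cabozantinib (adjusted p = 0.931). Dmp1 and Mepe passed the test higher with differentiation, and differed by -0.52 and 1.04 with cabozantinib without passing it. Ibsp rose in both steps, 2.82-fold with cabozantinib (limma adjusted p = 0.0441). The summed level of 7 macrophage and osteoclast markers was 49.2 to 89.6 in undifferentiated, 283 to 427 in differentiated and 257 to 311 in cabozantinib-treated osteoblasts. Of these 7, 4 passed limma's test with differentiation, all higher, and 0 with cabozantinib, beside 13.0% and 12.1% of all genes. Cdh5, an endothelial marker, fell with cabozantinib by 2.41 on the log2 scale (limma adjusted p = 0.025), while Pecam1, the other endothelial marker tested, differed by 0.60 (adjusted p = 0.286). Of the muscle markers Acta1 rose 3.63-fold (adjusted p = 0.0278) and Myod1 fell. The part of these cells in the values of the imprinted genes was not tested.

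Likeness to the pattern of Dlk1 is given as a description, since Dlk1 was chosen for that pattern. It was measured as the root mean square difference of the log2 profile, centered on its mean, over the 6 arrays and 16134 genes. The 8 nearest were Sox12 (0.34), 5330439B14Rik, Gm7903, Plet1, Myl10, 1810009J06Rik, Mctp2 and Gm839 (0.45). Sox12, a transcription factor of the SRY-box family, and Mctp2 passed background on every array, and the other 6 on neither cabozantinib array. Gm7903, Myl10 and 1810009J06Rik passed background on the differentiated arrays alone. For 5330439B14Rik, Plet1 and Gm839 it was both differentiated arrays and 1 undifferentiated array. All 6 passed the filter only through the differentiated arrays, so nothing is read from their order of groups. Sox12 gave -3.59 and -4.43 in undifferentiated, -1.80 and -1.48 in differentiated and -4.65 and -4.29 in cabozantinib-treated osteoblasts.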

How the data were processed

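RNA of primary mouse osteoblasts was measured on 6 one-color Agilent arrays. Per the file headers, Feature Extraction 11.0.1.1 subtracted the background from the deposited intensities and removed spatial trends, and they are not scaled between arrays. The authors also deposited log2 values normalized between arrays by steps not given in the sources used here, which served as an alternative. Probes were named through RefSeq accessions, which named 69.1% of 39429 probes. Control and outlier spots were removed, spots of a probe averaged, and log2 intensities set relative to the 75th percentile of each array. A probe was tested (27232 in all) if 2 or more arrays had it well above background and each group had a value. The 3 groups were fitted together by limma (version 3.58.1, R 4.3.3), two-sided, with Benjamini-Hochberg adjustment over probes and a call at 0.05. A gene was counted at its brightest probe. Where a group was not above background on any of its arrays, fold changes are bounds: the mean of the brighter group against, per array of the dim group, the higher of the dim probe and the lowest signal well above background.

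The members and gene lists were chosen with earlier results of these data known. Genes named were the members, other imprinted genes of their domains or called, genes of the further lists, called or not, and the 8 genes most like Dlk1. The replicate number was not a term, since nothing in the labels says that it marks a shared preparation. The study names 24 days in its results and 30 days in its array methods and labels, and 30 was used. The scripts were tested on simulated data. The number of arrays limits the precision. Normexp used median signals. Sequences were read with Python 3.11.15 and pandas 2.3.3, and figures drawn with matplotlib 3.10.9.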

Additional observations from a re-analysis of the deposited data

How the results depend on the processing

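With 2 arrays per group the counts of calls depended on the settings, and the cause was not tested. Counts are given in the order members other than Dlk1, other imprinted genes, all genes, and only where they moved by over 1.5 times. For cabozantinib against differentiated osteoblasts (0, 8 and 2796), the imprinted and all-gene counts were 0 and 0 with quantile normalization, the authors' values, normexp, no filter and the methods' t-test (paired or unpaired) after Benjamini-Hochberg adjustment, and 0 and 1 with probes well above background on all 6 arrays and with the replicate block. The member count was 1 (Cdkn1c in both limma fits) with the 4 arrays compared (4602 genes in all), with these and the replicate block (13 and 5670), and with the methods' t-test at 2-fold and unadjusted p, paired (2 imprinted) or unpaired. For differentiated against undifferentiated osteoblasts (0, 8 and 3012), the member count was 1 (Zim1) with quantile normalization and the authors' values, the imprinted and all-gene counts were 0 and 1050 with normexp, 3 and 1954 without a filter, 0 and 0 with the adjusted t-tests and 1 and 846 with the paired unadjusted one, and the imprinted count was 3 with probes above background on all 6 arrays, 5 with the replicate block, 5 with the 4 arrays and 3 with both. For cabozantinib against undifferentiated osteoblasts (3, 13 and 5541), imprinted and all-gene counts were 4 and 3330 with quantile normalization, 4 and 3405 with the authors' values and 7 and 2897 with probes above background on all 6 arrays, and the imprinted count was 8 with the 4 arrays and 6 with the unpaired unadjusted t-test. All 3 counts were 1, 0 and 611 with normexp, 1, 3 and 3018 without a filter, 1, 6 and 2995 with the replicate block, 1, 6 and 3316 with the block and the 4 arrays, 1, 3 and 1271 with the paired unadjusted t-test, and 0, 0 and 0 or 3 with the adjusted paired or unpaired t-test.

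Leaving out 1 array at a time gave 0 to 1 members, 0 to 11 imprinted genes and 0 to 4602 genes for cabozantinib against differentiated osteoblasts, 0 to 0, 2 to 8 and 1342 to 3142 for differentiation, and 1 to 3, 2 to 13 and 1887 to 6763 for cabozantinib against undifferentiated osteoblasts. In the first comparison 0 genes were called without differentiated replicate 1 or 2, 1 without cabozantinib replicate 1, 7 without cabozantinib replicate 2, and 4601 or 4602 without undifferentiated replicate 1 or 2. In the second, 1352 or 1342 genes were called without differentiated replicate 1 or 2. In the third, Meg3 and Mest were not called without undifferentiated replicate 1 or either cabozantinib replicate. The log2 difference of Dlk1 with cabozantinib stayed between -3.52 and -3.14 without any 1 array, and was -2.51 as the mean of both probes. Cdkn1c was called against undifferentiated osteoblasts in all 10 alternatives apart from those leaving out an array (adjusted p 0.00316 to 0.0294), Meg3 in 6 and Mest in 5 of 10.

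The direction of some differences reversed. Zim1 in cabozantinib-treated against undifferentiated osteoblasts was 0.15 with quantile normalization and 0.14 in the authors' values. Grb10 with cabozantinib was -0.27 with normexp and -0.69 to 0.70 without 1 array, and Mest with differentiation was -0.046 to 0.82 without 1 array. Plagl1 as the mean of its probes was -0.047 with cabozantinib, 0.037 with differentiation and -0.0098 across both.

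The labels number replicates 1 and 2 in each group, but deviations of same-numbered arrays correlated at -0.51 (undifferentiated and differentiated), -0.53 (undifferentiated and cabozantinib) and 0.26 (differentiated and cabozantinib), so the numbers were not taken as pairs. A replicate block with the undifferentiated numbers exchanged, chosen after seeing the data, called 3, 18 and 6960 for cabozantinib against differentiated, 2 members and 5873 genes for differentiation, and 21 imprinted and 10200 genes for cabozantinib against undifferentiated osteoblasts.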
